A study of Homo sapiens with 6 samples.

Results

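Chromosome 4 carries a cluster of genes for CXC chemokines. The differences in RNA level between libraries labelled shSETD2 and libraries labelled control were followed here gene by gene along this chromosome. The members were all chromosome 4 genes in the deposited table whose FPKM averaged 0.5 or more in the 6 libraries, which gave 491 of 550 listed genes on the chromosome and 491 of 14068 such genes in the whole series. Of the members, 450 were protein-coding. The chemokine stretch, from 74.6 to 75 Mb, was chosen by the difference between the groups in these same libraries and holds 6 members, so its own values are described without a test. FPKM is the number of fragments scaled to transcript length and library size, and differences are the mean log2(FPKM + 1) of the shSETD2 libraries minus that of the control libraries.

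The cells are labelled H1650, an established human lung adenocarcinoma line. Total RNA was sequenced in 3 libraries labelled control (wild-type SETD2) and 3 labelled shSETD2, in which short hairpin RNAs against SETD2, the enzyme that trimethylates histone H3 at lysine 36, were delivered by lentivirus. Neither the labels nor the methods of the study say whether the 3 numbered shSETD2 libraries carry 3 hairpins or repeat 1 of them, or that the libraries of a group came from separate cultures, so the p-values measure the spread between these libraries, which may be technical. No age of cells, dose or time is given in the sources used here.

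SETD2 itself had 18.0, 10.2 and 17.6 FPKM in the control group, libraries 1 to 3, against 8.97, 8.09 and 12.2 FPKM in the shSETD2 group. The groups overlapped, and the difference of -0.58 did not pass the threshold (standard error 0.24, adjusted p = 0.0641, limma), so the groups are named by their labels. It passed without control library 2 (-0.83, adjusted p = 0.00666, limma) and without shSETD2 library 3 (-0.73, adjusted p = 0.042, limma). Leaving out any other single library gave adjusted p of 0.149 to 0.181 (limma). With median ratio scaling the difference shrank to -0.25 (adjusted p = 0.377, limma). Upper quartile and quantile scaling gave -0.50 and -0.58 (adjusted p of 0.104 and 0.0837, limma). The line was checked against marker lists. Of 14 lung epithelium markers 4 were in the table, and NKX2-1, the transcription factor of lung epithelium, averaged 1.65 FPKM in the control libraries and was listed at 0 in all 3 shSETD2 libraries. The means of the other 3 were 0.58 FPKM in control and 1.23 FPKM in shSETD2 for LAMP3, 13.5 and 8.32 FPKM for ABCA3, and 1.25 and 0.67 FPKM for AGER. The surfactant genes and NAPSA have no value in the table. The 9 listed epithelial markers summed to between 14.4 and 16.4 FPKM in the control libraries and to between 406.1 and 458.9 FPKM in the shSETD2 libraries. Keratin genes KRT7, KRT8 and KRT18 were higher in shSETD2, while the control means of CDH1 and EPCAM were 1.27 and 0.71 FPKM and their shSETD2 means 0.012 and 0.22 FPKM. The 9 listed genes of kidney lineage ranged from PAX8, at 0.017 FPKM in control and 30.8 FPKM in shSETD2, to SALL1, at 7.64 FPKM in control and 0 in shSETD2. Their sums were between 21.7 and 25.2 FPKM in control and between 60.5 and 71.7 FPKM in shSETD2. Listed mesenchymal markers, 9 of 12, summed to between 98.9 and 113.8 FPKM in control and to between 155.5 and 166.3 FPKM in shSETD2. VIM made up most of these sums, with means of 66.5 FPKM in control and 132.4 FPKM in shSETD2, while TWIST1 (7.91 and 0 FPKM), COL1A1 (2.78 and 0.269 FPKM) and ZEB2 (1.99 and 0.656 FPKM) were lower in shSETD2. Of the 6 mesenchymal markers tested, 2 were higher and 3 lower by limma, with a median difference of -0.51. Of 10 leukocyte markers 2 were listed, with sums of at most 2.24 FPKM, and PTPRC had no value, as had all 8 endothelial markers. The part of these marker differences in any result on chromosome 4 was not tested. In bulk RNA, fewer cells of a type and less RNA per cell cannot be told apart.

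CXC chemokines are small secreted proteins that recruit leukocytes. Those encoded in this cluster with a Glu-Leu-Arg motif before the first cysteines include CXCL1, CXCL2, CXCL3, CXCL6 and CXCL8 (interleukin 8). They bind the receptor CXCR1, CXCR2 or both and are known for attracting neutrophils and promoting vessel growth. Their genes are short, lie next to each other, arose by duplication and are classical targets of NF-κB, whose sites sit just upstream of the transcription start.

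The starts of the stretch's genes are printed here because the 5 chemokine genes share a feature there that the choice of the stretch did not use. Each line gives 140 bases before and 20 bases from the start that RefSeq annotates, read 5′ to 3′ on the strand of the gene. The sequences come from the RefSeq promoter table (GRCh38.p14) and were placed in GRCh37 by exact match. Capitals mark GGAATTTCC, a sequence of the NF-κB type, on either strand. MTHFD2L, the stretch's gene that was not higher in shSETD2, is shown with its start inside the stretch, and EREG, the next gene, lies outside.
CXCL8 (chr4:74606146-74606305, plus strand): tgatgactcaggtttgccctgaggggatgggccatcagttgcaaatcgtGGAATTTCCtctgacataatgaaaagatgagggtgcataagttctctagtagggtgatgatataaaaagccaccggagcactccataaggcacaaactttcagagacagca
CXCL6 (chr4:74702255-74702414, plus strand): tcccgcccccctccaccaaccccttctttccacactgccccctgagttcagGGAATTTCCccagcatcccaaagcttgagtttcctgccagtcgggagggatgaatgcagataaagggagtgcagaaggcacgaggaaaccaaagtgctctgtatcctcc
CXCL1 (chr4:74734970-74735129, plus strand): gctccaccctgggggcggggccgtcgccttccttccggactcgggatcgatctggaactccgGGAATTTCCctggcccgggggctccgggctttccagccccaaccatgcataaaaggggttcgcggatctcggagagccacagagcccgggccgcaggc
CXCL3 (chr4:74904387-74904546, minus strand): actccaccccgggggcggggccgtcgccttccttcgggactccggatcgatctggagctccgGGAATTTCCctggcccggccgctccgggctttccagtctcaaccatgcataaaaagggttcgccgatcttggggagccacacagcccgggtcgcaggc
CXCL2 (chr4:74964893-74965052, minus strand): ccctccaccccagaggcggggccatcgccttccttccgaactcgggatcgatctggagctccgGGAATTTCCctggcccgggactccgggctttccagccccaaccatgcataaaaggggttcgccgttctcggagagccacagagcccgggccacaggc
MTHFD2L (chr4:74988850-74989009, plus strand): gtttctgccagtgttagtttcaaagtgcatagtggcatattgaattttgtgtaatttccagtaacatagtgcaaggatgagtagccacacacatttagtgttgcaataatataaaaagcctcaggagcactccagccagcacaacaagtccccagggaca
EREG (chr4:75230722-75230881, plus strand): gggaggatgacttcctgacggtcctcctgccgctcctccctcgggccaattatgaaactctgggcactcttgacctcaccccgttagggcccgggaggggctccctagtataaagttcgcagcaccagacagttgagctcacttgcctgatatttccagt

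All 5 chemokine promoters hold GGAATTTCC once in the 300 bases of the RefSeq table, beginning 91 bases before the start in CXCL8, 89 in CXCL6, 78 in CXCL1 and CXCL3, and 77 in CXCL2. Across all 35116 promoters of the table, 0.461% hold it. The looser form GGNNNTTCC, which includes GGAATTTCC, occurs in 20.1% of all promoters, and CXCL1, CXCL2 and CXCL3 each hold a second match to it that begins 53 bases before the start. TGANTCA, a sequence of the AP-1 type held by 7.71% of all promoters, occurs in this stretch only before CXCL8, from 137 bases upstream. The TATA-box sequence TATAAA (11.5% of all promoters) lies 31 bases before the start of CXCL8 and of the shown MTHFD2L start, and 32 bases before EREG. Both RefSeq starts of MTHFD2L and the promoters of EREG, AREG, ALB and PARM1 lack GGAATTTCC in this window. CXCL5, which has no value in the table, holds it 90 bases before its start. Among the 389 members with a promoter in the table, 8 hold GGAATTTCC. They are the 5 chemokine genes, NFKB1, LIMCH1 and UTP3. LIMCH1 and UTP3 were lower in shSETD2. A match describes the letters only and is not evidence of a bound factor.

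The promoters also differ in how alike they are. Aligned over the whole 300 bases, CXCL1 and CXCL3 were identical at 82.5% of 308 alignment columns, CXCL2 and CXCL3 at 73.8%, and CXCL1 and CXCL2 at 71.9%. CXCL8 was identical to the other 4 chemokine promoters at 45.2 to 48.0% of columns, close to its 47.9% with EREG. Of the distinct 50-base stretches in annotated CXCL2 transcripts, 9.63% also occur in CXCL3 and 4.16% in CXCL1, and of those of CXCL3 6.01% occur in CXCL2, while CXCL6 and CXCL8 share none with the others. How reads shared by CXCL1, CXCL2 and CXCL3 were divided is not given in the sources used here.

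The 5 chemokine genes of the stretch went from near 0 in the control libraries to levels between 2.54 and 368.8 FPKM in the shSETD2 libraries. CXCL1, a neutrophil attractant, was at 0.071, 0.118 and 0.079 FPKM in control and at 358.6, 368.8 and 368.6 FPKM in shSETD2, in the order of libraries 1 to 3, which is kept from here on. CXCL8 was at 0.244, 0.264 and 0.259 FPKM in control and at 219.7, 244.0 and 251.4 FPKM in shSETD2. CXCL2 was at 0.316, 1.12 and 0.506 FPKM in control and at 197.1, 206.2 and 206.2 FPKM in shSETD2. In all 3 genes every shSETD2 library lay far above every control library, and control library 2 had the highest control value of each. CXCL6 had an FPKM of 0 throughout the control group and of 6.77, 7.70 and 7.56 in shSETD2. CXCL3 was at 0.220, 0.123 and 0 FPKM in control and at 3.28, 3.17 and 2.54 FPKM in shSETD2, with no overlap between the groups.

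On the FPKM scale, which takes length into account, the order in the shSETD2 libraries was CXCL1, CXCL8, CXCL2, CXCL6 and CXCL3, and no 2 neighbours in this order overlapped over the 3 libraries. The order does not follow the position on the chromosome, on which CXCL8, CXCL6, CXCL1, CXCL3 and CXCL2 follow each other. CXCL3 and CXCL2, whose starts lie 60.4 kb apart and whose promoters are alike, had shSETD2 means of 2.99 ± 0.40 and 203.2 ± 5.24 FPKM (SD, n = 3). With CXCL2 this much higher and part of its sequence shared, the CXCL3 value is uncertain. The differences of log2(FPKM + 1) were 8.39 for CXCL1, 7.57 for CXCL8, 6.98 for CXCL2, 3.06 for CXCL6 and 1.84 for CXCL3. With control values this close to 0, they depend on the 1 added before the logarithm, and the value of CXCL1 was 10.92 with 0.1 and 11.88 with 0.01 added.

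The remaining member of the stretch, MTHFD2L, encodes a mitochondrial enzyme of folate metabolism and begins 17.1 kb from the start coordinate of CXCL2. Its FPKM was 1.76, 1.65 and 1.89 in control and 1.22, 1.41 and 1.11 in shSETD2. All 3 shSETD2 values lay below all 3 control values, a difference of -0.30 that is about the median of all genes tested (-0.29). Quantile normalization turned its direction (0.10). The annotation places 11 protein-coding genes in the stretch, and 5 of them have no value in the table: CXCL5, PPBP, PF4, PF4V1 and a gene known only by its identifier. PPBP and PF4 encode chemokines of platelets. Of 7 chemokine genes of the cluster that bind CXCR1 or CXCR2, 5 therefore had values.

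**Figure D1:**
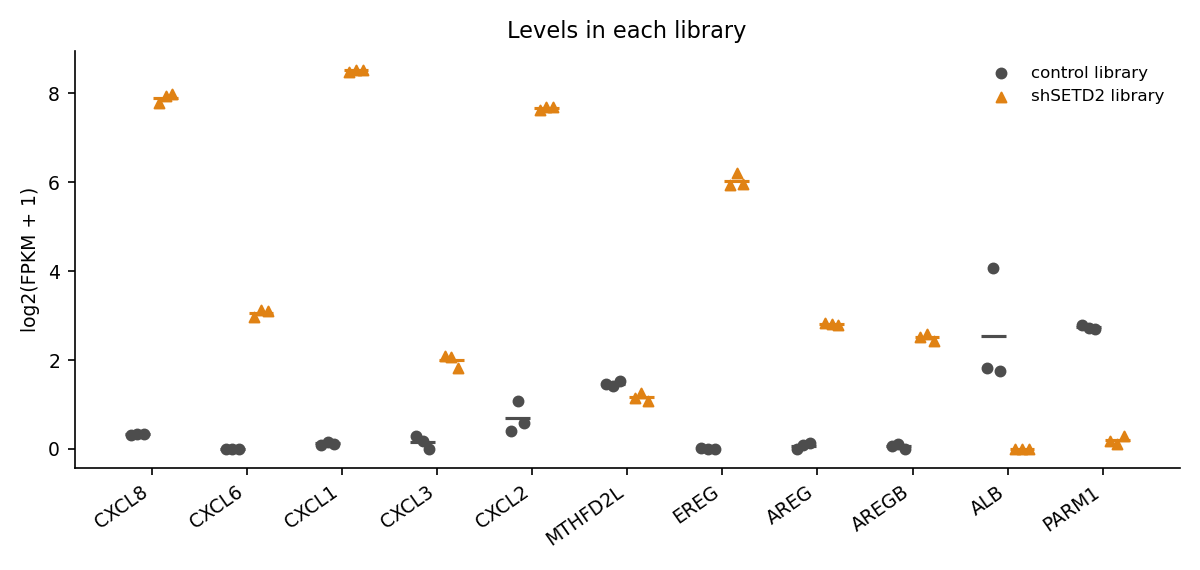
Level in each library, as log2(FPKM + 1), of the 6 members of the chemokine stretch and of 5 genes next to it. Each symbol is 1 library (circles control, triangles shSETD2), with the group mean as a line. The shSETD2 libraries lie above the control libraries for the 5 chemokine genes, EREG, AREG and AREGB, and below them for MTHFD2L, ALB and PARM1.

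The cluster's contribution to the RNA of the chromosome changed accordingly. The 5 chemokine genes made up between 0.0206 and 0.0402% of the summed FPKM of the members in the control libraries and between 22.3 and 23.2% in the shSETD2 libraries. The summed FPKM of all members was between 4037 and 4128 in control and between 3518 and 3686 in shSETD2. Without the 5 genes, the shSETD2 sums were between 2732 and 2856 FPKM.

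Beyond the stretch, the genes on the centromere-facing side were lower in shSETD2 and the first 3 on the other side were higher. Called genes here have a Benjamini-Hochberg adjusted p under 0.05 in limma over all 14068 genes tested. Among all of these, 26.8% were called higher and 51.8% lower in shSETD2. Of the 5 listed genes before the stretch, 4 were members, and all 4 fell. ADAMTS3, a procollagen protease, was at 2.60 ± 0.31 FPKM in control and 0.316 ± 0.101 in shSETD2 (SD, n = 3), a difference of -1.45 (adjusted p = 1.24e-05, limma). COX18, needed for assembly of cytochrome oxidase, differed by -1.38 and ANKRD17, an ankyrin repeat protein, by -0.83. ALB, which encodes serum albumin and lies 343.4 kb before CXCL8, was at 2.54, 15.8 and 2.38 FPKM in control and listed at 0 in shSETD2. Control library 2 stood apart from the other two. The fitted difference of ALB was -2.55 (adjusted p = 0.00788, limma) and -1.79 without control library 2 (adjusted p = 6.27e-06, limma). GC, the vitamin D binding protein, was listed below the FPKM minimum and was not tested.

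On the far side, EREG (epiregulin), AREG and AREGB (amphiregulin), ligands of the EGF receptor, formed a group of 3 consecutive genes called higher. EREG was at 0.019, 0 and 0 FPKM in control and at 59.9, 72.9 and 60.9 FPKM in shSETD2, a difference of 6.02 (standard error 0.083, adjusted p = 2.89e-08, limma). It was the largest positive difference among the 485 members outside the stretch. AREG was at 0, 0.056 and 0.094 FPKM in control and at 6.10, 6.03 and 5.94 FPKM in shSETD2. AREGB was at 0.046, 0.085 and 0 FPKM in control and at 4.69, 5.01 and 4.40 FPKM in shSETD2. Their differences were 2.74 and 2.45 (adjusted p of 1.08e-07 and 3.02e-07, limma). AREG and AREGB are near-identical copies in GRCh37, sharing 94.0% of the 50-base stretches of AREG, so how their reads were divided is uncertain. Of the other EGF receptor ligand genes of the chromosome, EPGN, BTC and EGF have no value in the table. After AREGB the direction changed again. PARM1, a mucin-like membrane protein, was at 5.67 ± 0.23 FPKM in control and 0.144 ± 0.071 in shSETD2 (SD, n = 3), a difference of -2.54 (adjusted p = 2.75e-07, limma), and RCHY1, a ubiquitin ligase, differed by -0.60 (adjusted p = 0.00143, limma). The members from CXCL8 to AREGB held 8 genes higher in shSETD2 and, between them, MTHFD2L, with ALB and PARM1 on either side. This count is only a description, since the chemokine genes among the 8 lie in the stretch chosen for its difference. It also counts the near-identical copies AREG and AREGB separately. EREG, AREG and AREGB had control means between 0.006 and 0.050 FPKM and met the FPKM minimum only through the shSETD2 libraries.

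**Figure D2:**
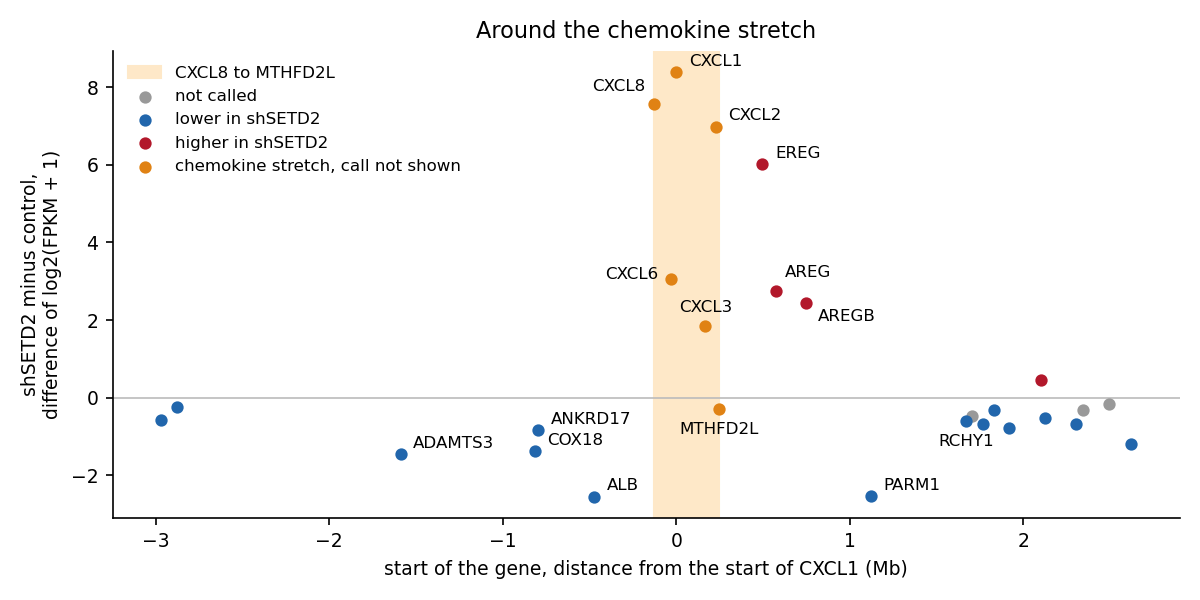
Difference of log2(FPKM + 1), shSETD2 minus control, of members within 3 Mb of CXCL1, against the distance of their starts from that of CXCL1 in Mb. Points are genes, orange in the chemokine stretch, whose calls are not shown, and elsewhere red where higher and blue where lower in shSETD2 by limma and grey where not called, and the shaded band runs from CXCL8 to MTHFD2L. CXCL1 stands at 8.39 and EREG at 6.02, while ALB and PARM1 to the left and right lie at -2.55 and -2.54.

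Most of the chromosome went the other way. Outside the stretch, 339 of 485 members (69.9%) were lower and 78 (16.1%) higher in shSETD2, against 51.8% and 26.8% of all genes tested, and 68 were not called. In 341 of them all control values exceeded all shSETD2 values and in 81 the reverse held, where all genes tested gave 53.0% and 27.9%. The median difference outside the stretch was -0.66, with quartiles of -1.12 and -0.11. The median of all 491 members was -0.65, which was 0.36 below the median of all genes tested on this scale. With median ratio scaling, which brought the median of all genes tested to -0.01, 111 members outside the stretch were higher and 276 lower, so 28.7% of these calls were higher against 18.7% without it, and the median of all members was -0.36. Of the 23 chromosomes with at least 20 genes tested, 1 had a lower median than chromosome 4. The minimum on FPKM shapes these counts, since 22 members passed it with a control mean under 0.5 and 89 with an shSETD2 mean under 0.5. The members just inside it were EPHA5-AS1 and RASGEF1B (mean FPKM 0.502 and 0.507) and the genes just outside SLC4A4 and EXOC1L (0.489 and 0.488). Between 6 and 11 members were listed at 0 in a control library and 34 or 35 in an shSETD2 library.

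**Figure D3:**
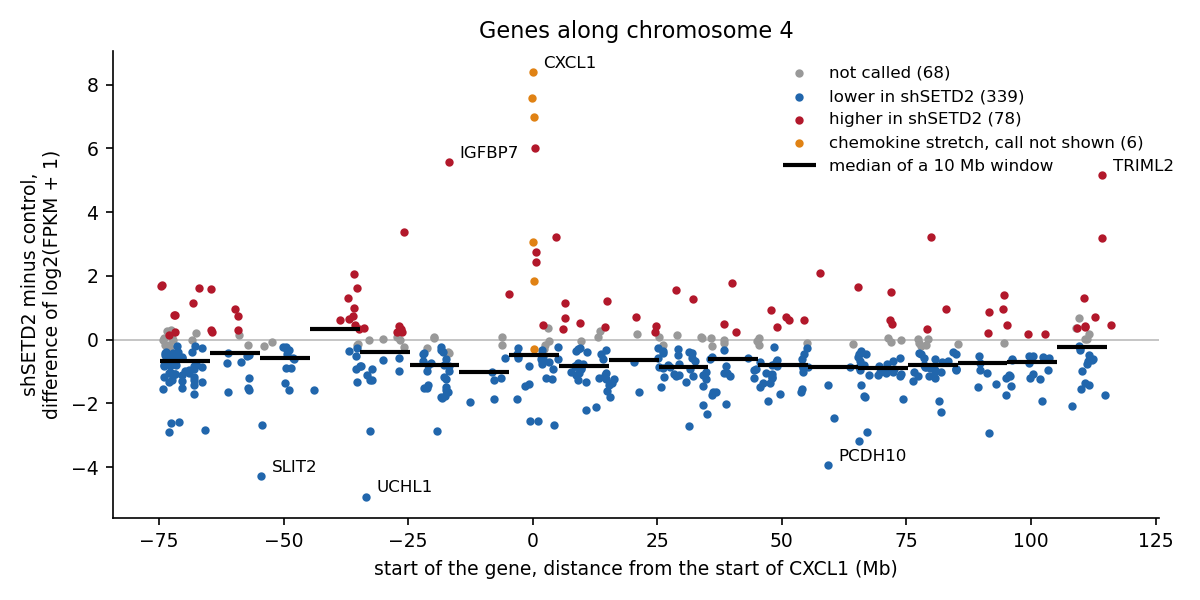
Difference of log2(FPKM + 1), shSETD2 minus control, of all 491 members against the distance of their starts from that of CXCL1 in Mb. Points are genes, orange for the 6 of the stretch and coloured by the limma call for the 485 outside it (78 higher, 339 lower, 68 not called), and black lines are medians of 10 Mb windows with at least 5 members. The chemokine stretch at 0 rises to 8.39, while the window that contains it has a median of -0.48.

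Along the chromosome in windows of 10 Mb, the median was negative in all windows with at least 5 members but that from 30 to 40 Mb, and ranged there from -1.003 (60 to 70 Mb, 9 members) to -0.22 (180 to 190 Mb, 26 members). The window of the chemokine cluster, from 70 to 80 Mb, had a median of -0.48 over 39 members. Of its 33 members outside the stretch 5 were higher and 23 lower, and their median was -0.58. From 20 to 30 Mb, 13 of 15 members were lower and 2 were not called, and all 15 differences were negative. The window from 30 to 40 Mb had a median of 0.32 over 17 members. It contains a run of 5 consecutive members called higher, from TBC1D1 at 37.9 Mb to KLHL5 at 39.0 Mb. Their differences were 0.66 for TBC1D1, which acts on Rab proteins in glucose transport, 0.74 for the transcription factor KLF3, 1.00 for the lipoprotein receptor TLR6, 2.05 for FAM114A1 and 0.47 for KLHL5. FAM114A1 was at 2.10, 2.25 and 1.45 FPKM in control and at 11.0, 11.3 and 10.8 FPKM in shSETD2. TLR6, with a control mean of 0.20 FPKM, met the FPKM minimum only by being higher in shSETD2, and the run and the window include it. Runs of genes called lower were longer, on a chromosome where 69.9% of members outside the stretch were lower and 16.1% higher. Whether run lengths go beyond these shares was not tested. The longest had 20 members, from ELF2 at 139.9 Mb to ABCE1 at 146.0 Mb, followed by 15 from NOP14 to CRMP1 near the tip of the short arm and 14 from KIT to SPINK2. Neighbouring members had a Pearson's r of 0.24 between their differences (490 pairs) and 0.15 without the stretch (484 pairs). On the other chromosomes it was between 0.10 and 0.44. These are descriptions across genes of the same libraries.

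The difference of CXCL3, the smallest of the 5 chemokine genes, was reached by 11 members outside the stretch and by 691 of all genes tested, a count that includes the 5. That of CXCL2 was reached by 15 of all genes tested, CXCL1, CXCL8 and CXCL2 itself among them. Of the 10 largest positive differences outside the stretch, those of IGFBP7, OCIAD2, TLR2, ANXA3 and LINC02377 belonged to genes with no neighbouring member called higher. IGFBP7, a secreted binding protein of insulin-like growth factors, was at 0.520, 0.710 and 0.577 FPKM in control and at 79.2, 72.2 and 74.6 FPKM in shSETD2 (difference 5.57, adjusted p = 1.51e-08, limma). Its neighbours POLR2B, a subunit of RNA polymerase II, and ADGRL3, an adhesion G protein-coupled receptor, fell by 0.83 and 1.96 on the log2 scale. IGFBP7 and POLR2B overlap at their ends on opposite strands, and whether reads were assigned by strand is not stated. TLR2, the receptor for bacterial lipoproteins, was at 0.026, 0 and 0 FPKM in control and at 8.67, 8.51 and 8.29 FPKM in shSETD2 (difference 3.23, adjusted p = 4.29e-08, limma), between TMEM131L at -0.89 and PLRG1 at -0.59. TLR2 met the FPKM minimum only through the shSETD2 libraries, so its call and p-value are a description. ANXA3, an annexin, was at 0.670, 0.665 and 0.473 FPKM in control and at 13.6, 14.7 and 13.5 FPKM in shSETD2, next to FRAS1, an extracellular matrix protein, at -2.67.

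The gene for the tripartite motif protein TRIML2 and the long noncoding RNA LINC02434 start 68.8 kb apart near the end of the long arm and were higher together. TRIML2 was at 0, 0 and 0.051 FPKM in control and at 33.2, 38.1 and 35.02 FPKM in shSETD2 (difference 5.16, adjusted p = 2.29e-08, limma). LINC02434 was listed at 0 in the control libraries and at 8.23, 8.79 and 7.55 FPKM in shSETD2. OCIAD2, too, had 0 in every control library and was at 9.06, 9.10 and 9.90 FPKM in shSETD2. The last of the 10 largest positive differences was that of the noncoding RNA LINC02377, listed at 0 in control with a mean of 3.27 FPKM in shSETD2. TRIML2, LINC02434, OCIAD2 and LINC02377 met the FPKM minimum only through the shSETD2 libraries, so their calls and p-values are a description.

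Several of the 10 largest negative differences belonged to genes that were near or at 0 in every shSETD2 library. UCHL1, a ubiquitin hydrolase of neurons, was at 29.5, 28.1 and 30.2 FPKM in control and listed at 0 in all shSETD2 libraries. SLIT2, a secreted axon guidance ligand of the ROBO receptors, was at 32.1, 32.4 and 31.2 FPKM in control and at 0.80, 0.65 and 0.67 FPKM in shSETD2 (difference -4.27, adjusted p = 2.26e-08, limma). PCDH10, a protocadherin, was at 15.1, 14.3 and 13.4 FPKM in control and at 0, 0 and 0.007 FPKM in shSETD2. In each of these 3 genes the lowest control library was far above the highest shSETD2 library. CPE, a carboxypeptidase that processes prohormones, fell from 18.8 ± 1.11 to 1.59 ± 0.17 FPKM (SD, n = 3), and FGFR3, a receptor of fibroblast growth factors, from 9.02 ± 0.17 to 0.353 ± 0.041 FPKM (SD, n = 3). KIT, the receptor of stem cell factor, was at 6.64, 6.09 and 6.16 FPKM in control and listed at 0 in shSETD2, as were the transcription factor gene HMX1 and BEND4. MGARP and RNF150 had shSETD2 means of 0.014 and 0.026 FPKM against 8.24 and 6.65 FPKM in control.

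Gene groups of the chromosome were read against the members outside the stretch, of which 16.1% were higher and 69.9% lower. Of 8 tested genes of inflammatory signaling outside the cluster, 7 rose and 1 was not called by limma, and their median difference was 0.88 against -0.65 for all members. TLR2 and TLR6, which are among those that rose, had control means of 0.0086 and 0.20 FPKM. They met the FPKM minimum only by being higher in shSETD2, and the count and the median include them. NFKB1, which encodes the p105 precursor of NF-κB p50, was at 4.04, 3.95 and 3.90 FPKM in control and at 13.9, 13.3 and 13.6 FPKM in shSETD2, a difference of 1.56 (adjusted p = 3.51e-07, limma). IRF2, an interferon regulatory factor, rose by 1.30 and TNIP2, an inhibitor of NF-κB signaling, by 0.76 on the log2 scale. Among the 17 genes of this list 8 have no value, IL2, IL15, IL21, TLR1 and TLR10 among them. Growth factor genes other than EGF receptor ligands rose in 4 of 4 tested, with PDGFC at 0.95 and FGF5 at 0.68 the largest. FGF5, with a control mean of 0.43 FPKM, likewise met the minimum only by being higher in shSETD2. With any 1 library left out, 2 or 3 of these 4 passed, and 2 did without control library 2 or shSETD2 library 3.

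Of 13 cell cycle genes tested, 10 fell (76.9%), 1 rose and 2 were not called, with a median difference of -0.74, so the share that fell was near that of the chromosome. The spindle checkpoint gene MAD2L1 fell from 23.3 ± 0.64 to 8.44 ± 0.46 FPKM (SD, n = 3), the centromere genes CENPU and CENPC by 1.35 and 1.21, and cyclin A2 (CCNA2) by 0.78 on the log2 scale. TACC3, a spindle protein, was the gene that rose, by 0.15, and it no longer passed without control library 1 or 2 or shSETD2 library 1 or 3. Chromatin genes fell in 9 of 12 tested, again near the share of the chromosome, and rose in 1, with a median of -0.59. SMARCA5, an ATPase of chromatin remodeling, fell by 1.02 and PRDM8 rose by 1.15 on the log2 scale. Between 7 and 9 chromatin genes were lower with 1 library left out, the fewest without control library 2 or 3. NSD2, an enzyme that dimethylates histone H3 at lysine 36, was at 8.66 FPKM in control and 7.02 in shSETD2 and did not pass the threshold (difference -0.27, adjusted p = 0.164, limma). It passed without shSETD2 library 2 (-0.40, adjusted p = 0.0471, limma) and was -0.14 without control library 1. The difference of NSD2 was 0.045 with median ratio scaling. Under it 9 of 13 cell cycle genes and 5 of 12 chromatin genes were lower, against 276 of 485 members outside the stretch. Without this scaling, the medians of the cell cycle and chromatin groups lay on either side of that of all members (-0.65).

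Of 4 tested genes in a list of receptor tyrosine kinases and TEC kinases, 3 fell (FGFR3, KIT and FGFRL1) and 1 was not called. Quantile and median ratio scaling each added 1 that rose. Protocadherin and FAT genes were divided, with PCDH10, PCDH7 (-1.57) and PCDH18 lower and the atypical cadherins FAT1 (0.72) and FAT4 (0.60) higher. The Wnt pathway genes LEF1, a transcription factor, CXXC4 and CTBP1 were lower, LEF1 by 2.03, and CTBP1 no longer passed without control library 1 or 2 or shSETD2 library 2 or 3. Under each of 3 other scalings 2 of these 3 genes were lower. Fibrinogen chain genes FGA, FGB and FGG, which encode clotting proteins made in the liver, were listed at 0 in all shSETD2 libraries and, like ALB, had their highest value in control library 2. FGB was at 0.667, 4.06 and 0.450 FPKM in control. Their differences, -0.94 to -1.20, were -0.57 to -0.64 without that library. Under quantile normalization, and with any 1 shSETD2 library left out, their adjusted p lay between 0.0632 and 0.116 (limma), although all 3 control values of each gene were above 0. The glucuronosyltransferase gene UGT2B7 rose (difference 1.44), and ADH5, the alcohol dehydrogenase gene with a value, was not called. Chemokine genes of the chromosome that bind CXCR3 or CXCR5 (CXCL9, CXCL10, CXCL11 and CXCL13), the 5 bone and tooth matrix genes and the 4 GABA receptor genes have no value in the table.

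**Figure D4:**
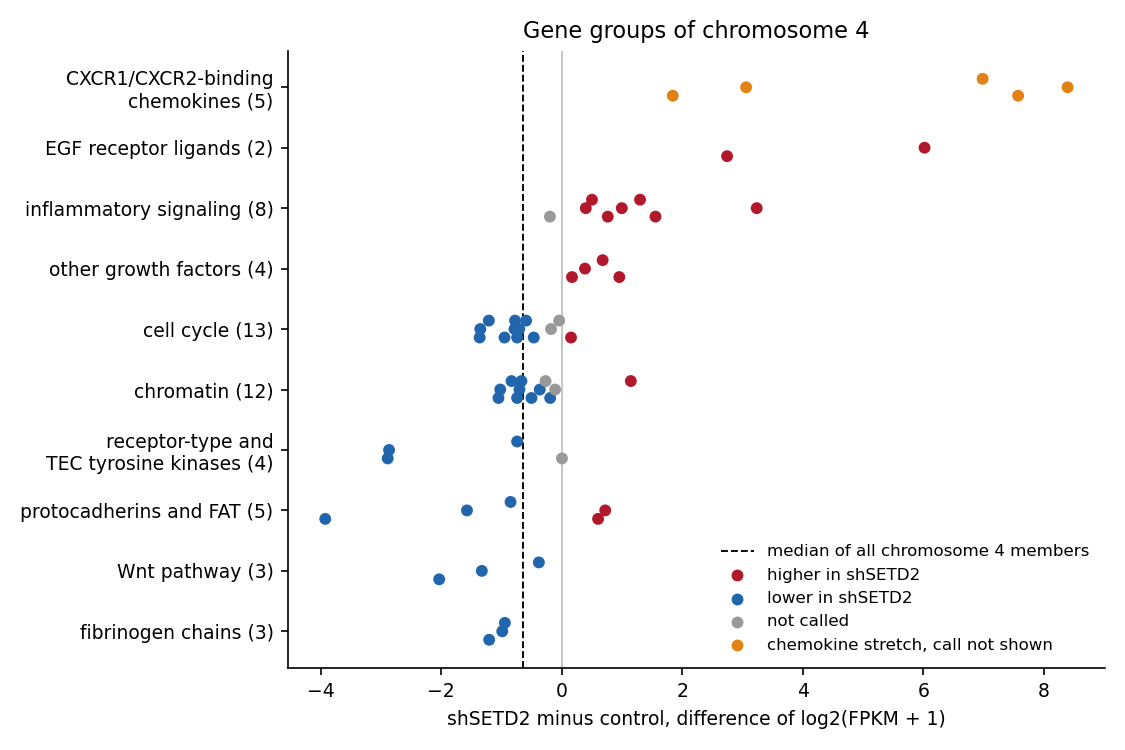
Difference of log2(FPKM + 1), shSETD2 minus control, of tested genes of chromosome 4 by gene group, with the number of genes in brackets. Each point is a gene, orange in the chemokine stretch and otherwise coloured by its limma call, and the dashed line is the median of all members (-0.65). Chemokines, EGF receptor ligands, inflammatory signaling genes and other growth factors lie mostly above 0, and cell cycle and chromatin genes mostly around the dashed line.

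Chemokine genes were not raised on chromosome 4 alone. Among 48 chemokine and receptor genes of other chromosomes 8 were in the table and 6 had enough signal for the test. It called 3 of these 6 higher and 2 lower in shSETD2, against 26.8% and 51.8% of all genes tested. The 3 called higher met the FPKM minimum only through the shSETD2 libraries, so their count is a description. CCL20, an attractant of dendritic cells and lymphocytes, was listed at 0 in the control libraries and averaged 61.7 FPKM in shSETD2. CCL2, an attractant of monocytes, and CCL28 were also listed at 0 in control and averaged 7.21 and 3.01 FPKM in shSETD2. CXCR4, the receptor of CXCL12, fell from 4.03 to 0.270 FPKM (difference -1.98, adjusted p = 2.52e-06, limma), and CXCL16 fell by 0.19 on the log2 scale, a direction that reversed under median ratio and quantile scaling and a call that was lost without control library 1 or 3 or shSETD2 library 1 or 3. The receptor genes CXCR1 and CXCR2 have no value in the table.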

How the data were processed

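Total RNA of 6 libraries was sequenced on a stranded kit. Alignment was to hg19 (GRCh37) by HISAT2 and quantification by Ballgown, and the authors deposited FPKM per gene and library for 15897 genes. Tool versions, the filter on the listed genes and the use of strand in counting are not given in the sources used here. A second deposited table repeats these FPKM values and holds the authors' own comparison, and was not used. FPKM carries no read number, so depth and counting error are unknown, the spread over 3 libraries gives the precision, and values of 0 are called listed at 0.

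The 14068 genes averaging 0.5 FPKM or more entered a moderated linear model of log2(FPKM + 1) with an intensity trend (limma 3.58.1, R 4.3.3), 2 groups and Benjamini-Hochberg adjustment at 0.05. An exact permutation test of 3 against 3 cannot go below 0.1, so the p-values rest on this model. The fit was tested on simulated data. The 6 genes of the chemokine stretch are part of the fit across all genes. Their calls and p-values are not used in the report, except in a count over all members at a mean FPKM of at least 5. Named genes were those of the stretch, the 5 listed genes on either side, the 10 largest differences of each sign outside it, chemokine genes of other chromosomes by size among those past the threshold, and genes of written lists with large differences. A few others (such as TACC3, NSD2 and the genes of the run from TBC1D1) were named after their values were seen. The members and lists were chosen with earlier results of these data known. Promoters are from RefSeq (GRCh38.p14), 389 of 491 members matched by symbol, and transcripts from GENCODE on GRCh37. Promoters were aligned with Biopython 1.88. Python was 3.11.15, with pandas 2.3.3, numpy 2.4.6 and, for plots, matplotlib 3.10.9. Alternatives were pseudocounts of 0.1 and 0.01, no filter or a mean FPKM of at least 5, 3 scalings, no trend, a replicate block, windows of 5 Mb and each library left out. Same-numbered libraries of the 2 groups did not deviate together (r of -0.02 to 0.02), so the numbers were not taken as pairs.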

Additional observations from a re-analysis of the deposited data

How the results depend on the processing

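Fragments behind an FPKM are unknown, so small differences of low genes could not be judged. Counts of members called outside the stretch stayed within 1.5 times the reported ones (78 higher, 339 lower) under 14 of 15 alternatives. With a mean FPKM of at least 5, where fewer genes are tested, 38 were higher and 141 lower outside the stretch. Over all members, a count that includes genes of the stretch, 41 were higher and 141 lower at this minimum. The replicate block gave 78 higher and 338 lower outside the stretch. Among named genes SETD2 then passed (adjusted p = 0.0156, limma) while TACC3 (0.0841) and CXCL16 (0.0786) did not. The numbers pair no samples, so this block is only a change of model.

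Median differences moved with the scale. That of all members was -0.83 and -0.84 with 0.1 and 0.01 added, -0.60 without a filter, -0.52 at a mean FPKM of at least 5, -0.36 with median ratio, -0.59 with upper quartile and -0.44 with quantile scaling. Outside the stretch the values were -0.83, -0.85, -0.61, -0.54, -0.38, -0.59 and -0.46 in the same order. In the stretch the median of 5.02 was 7.23 and 8.99 with 0.1 and 0.01 added, 7.57 at a mean FPKM of at least 5, where low chemokine genes drop out, 5.22 with median ratio and 5.10 with quantile scaling, and 4.95 to 5.12 with 1 library left out. Relative to all genes tested, the chromosome stayed lower, by 0.36 as deposited, 0.35 with median ratio and 0.34 with quantile scaling. Among windows of 5 Mb with at least 5 members the lowest median was -1.01, and those starting at 35, 45 and 185 Mb had positive medians (0.40, 0.16 and 0.03).

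Directions reversed for MTHFD2L (0.10, quantile normalization), NSD2 (0.045, median ratio) and CXCL16 (0.053 with median ratio and 0.16 with quantile normalization), and the cause was not tested.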
